A study of Mus musculus with 8 samples.

Results

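Metallothioneins and a core set of oxidative stress genes were followed in the thoracic aorta of newborn mice without fibulin-4, a secreted protein on which elastic fibre assembly depends. The set holds 10 of the 22180 named genes measured: the metallothioneins Mt1, Mt2 and Mt3, the heme oxygenase Hmox1, the quinone reductase Nqo1, the glutathione genes Gclm, Gclc and Slc7a11, and the redox enzymes Txnrd1 and Srxn1. Each gene was taken from the probe sets annotated with its symbol alone, and where a gene had several, the one used was chosen by the highest mean log2 value over the 8 arrays. That choice concerned Slc7a11 only, whose chosen probe set had a mean log2 value of 3.44 and whose other one had 3.04. The genes were listed with earlier results of these arrays known, among them the values of Mt2, so the values below are a description of the set and not evidence that it stands apart.

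The 4 groups were wild-type ascending aorta, wild-type descending aorta, fibulin-4 knockout ascending aorta and fibulin-4 knockout descending aorta, with 2 arrays each. All pups were of strain C57BL/6 and were collected on postnatal day 0, with no treatment named. The ascending piece spanned aortic valve to ductus arteriosus and the descending piece ran from the vena cava to the diaphragm. Each array was hybridised with RNA pooled from 8 pups of one genotype and segment and amplified from 5 ng, and arrays of a group are biological replicates according to their labels. The samples are whole tissue, in which fewer cells of a type and less RNA per cell cannot be told apart.

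Metallothioneins are small cysteine-rich proteins that bind zinc, copper and cadmium and scavenge reactive oxygen. Mt1 and Mt2 are switched on by metals through the transcription factor MTF1, and also by glucocorticoids and oxidants, while Mt3 is best known from the brain. The other genes of the set are textbook targets of NRF2, a transcription factor that the adaptor KEAP1 holds down until oxidants or electrophiles release it. NRF2 targets supply glutathione, reduce thioredoxin and degrade free heme.

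All values are log2 intensities, and a change is a difference between group means on that scale. Both wild-type replicate 2 arrays had a narrower distribution, with an interquartile range over named genes of 1.80 (ascending) and 1.74 (descending), where the remaining 6 arrays had 2.14 to 2.28. A change within 1 segment had a median standard error of 0.30, and an averaged one 0.21. The smooth muscle gene Acta2 had log2 values of 12.10 to 12.44 on all 8 arrays. That shows smooth muscle signal on every array but does not by itself identify the tissue as aorta. Markers of other tissues were also read and are given below. The targeted gene was not analysed here, and genotype labels were taken as given.

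Mt2 rose in the knockout, by 1.64 averaged over both segments (SE 0.19, 3.12-fold, 95% interval 1.22 to 2.07), and was the 1 gene of the set that passed the test. Mt1 was higher by 0.78 without passing, and Mt3 differed by -0.03. The order within the family was the same in both segments: the difference was largest for Mt2, smaller for Mt1, and within the error for Mt3. Mt3 was a dim gene on these arrays, with a mean log2 value of 4.61.

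Mt3, Mt2 and Mt1 lie next to one another in that order on mouse chromosome 8 among protein-coding genes in the RefSeq annotation, between Mt4 and Nup93. The 250 bases before their transcription starts, from RefSeq on build GRCm38.p6, are shown because the genes share a cluster and differed in the size of their change. Gclm is added as a glutathione gene with both kinds of motif searched. Capitals mark letters that match TGCACNC or TGCGCNC, the core of the metal response element bound by MTF1, or TGACNNNGC, the antioxidant response element bound by NRF2, on either strand.
Mt1, chr8:94178839-94179088, plus strand: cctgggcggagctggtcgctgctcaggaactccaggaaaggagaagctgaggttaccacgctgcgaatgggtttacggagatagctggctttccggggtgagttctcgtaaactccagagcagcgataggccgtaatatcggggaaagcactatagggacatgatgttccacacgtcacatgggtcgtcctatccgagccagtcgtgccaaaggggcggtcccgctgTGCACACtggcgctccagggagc
Mt2, chr8:94172368-94172617, plus strand: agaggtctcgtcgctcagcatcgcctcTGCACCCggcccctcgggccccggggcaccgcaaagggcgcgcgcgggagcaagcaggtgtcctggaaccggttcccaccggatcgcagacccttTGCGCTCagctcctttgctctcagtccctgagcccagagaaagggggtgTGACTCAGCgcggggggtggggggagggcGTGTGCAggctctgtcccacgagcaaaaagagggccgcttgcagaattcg
Mt3, chr8:94152357-94152606, plus strand: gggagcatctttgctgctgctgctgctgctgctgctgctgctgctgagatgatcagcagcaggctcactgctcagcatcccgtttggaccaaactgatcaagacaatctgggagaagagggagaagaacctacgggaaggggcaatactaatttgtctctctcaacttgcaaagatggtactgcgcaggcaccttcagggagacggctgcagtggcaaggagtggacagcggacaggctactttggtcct
Gclm, chr3:122245307-122245556, plus strand: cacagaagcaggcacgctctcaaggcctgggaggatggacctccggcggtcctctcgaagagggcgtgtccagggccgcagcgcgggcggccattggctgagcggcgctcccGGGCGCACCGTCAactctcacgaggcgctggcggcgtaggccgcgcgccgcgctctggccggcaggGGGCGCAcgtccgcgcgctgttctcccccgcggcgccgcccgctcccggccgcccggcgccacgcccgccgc

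The search covered 300 bases per gene, these 250 and the 50 after the start. Positions count from the start site, with the first transcribed base as 1, and give the leftmost base of the match. Mt2 held 4 metal response matches, at -223, -128, -50 and 5, and a TGACNNNGC match at -79. Mt1 held 3 metal response matches, at -23, 3 and 21, and Mt3 held 1, at 28. In Gclm there were 3, at -138, -72 and 28, and the TGACNNNGC match at -134 overlapped the first of them. Of 32851 mouse promoter windows of the same length, 25.7% held at least 1 match to either metal response core, 1.97% held 3 or more, 12.4% held TGACNNNGC and 3.43% held both kinds. Srxn1, not printed here, also held both kinds, a metal response match at -19 and TGACNNNGC at 29. Its averaged change was -0.16. Txnrd1 had TGACNNNGC at -92 of one of its 3 listed starts. Neither motif was in the windows of Nqo1 and Slc7a11. RefSeq windows were matched for 8 of the 10 genes, all but Hmox1 and Gclc. Letters beyond these windows were not searched, so the counts depend on the start that RefSeq lists and do not rank the genes by motif content. A match describes letters in the window and was not tested for binding. The part of these motifs in the size of any change was not tested.

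Mt2 had log2 values of 10.02 and 10.59 in wild-type ascending aorta, 10.47 and 10.58 in wild-type descending aorta, 11.96 and 12.04 in knockout ascending aorta, and 12.12 on both knockout descending arrays. Every knockout array lay above every wild-type array, and the lowest wild-type value was in ascending replicate 1. The change was 1.69 (SE 0.27, 3.23-fold) in the ascending segment and 1.59 (SE 0.27, 3.02-fold) in the descending segment. The averaged change had an unadjusted p of 7.7e-06 and a limma adjusted p of 0.0202 over all 22180 genes, whereas the adjusted p within a segment was 0.124 and 0.245. Its call ended after a second quantile normalization (adjusted p 0.0569), when every row of the table was tested (0.265), and without either wild-type descending array or any 1 of the 4 knockout arrays (0.0858 to 0.206).

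Mt1, the close relative of Mt2, had 10.23 and 10.48 in wild-type ascending aorta, 10.19 and 10.43 in wild-type descending aorta, 11.28 and 10.95 in knockout ascending aorta, and 11.21 and 11.02 in knockout descending aorta. Here too every knockout array lay above every wild-type array. The averaged change was 0.78 (SE 0.18, 1.72-fold, 95% interval 0.37 to 1.19, limma adjusted p 0.198), with 0.76 in the ascending and 0.81 in the descending segment. Mt1 and Mt2 are closely related in sequence, and whether their probes share signal was not tested.

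Mt3 had 4.96 and 4.26 in wild-type ascending aorta, 4.74 and 4.54 in wild-type descending aorta, 4.46 and 4.38 in knockout ascending aorta, and 4.32 and 5.22 in knockout descending aorta. The groups overlapped in both segments, and the spread between the knockout descending arrays was the widest. By level Mt3 lay in the group above the dimmest when all genes were divided into 5 equal groups. Whether its low level hid a change was not tested. The averaged change of -0.03 (SE 0.25) had a 95% interval of -0.59 to 0.53, and its sign turned to 0.07 after quantile normalization.

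**Figure D1:**
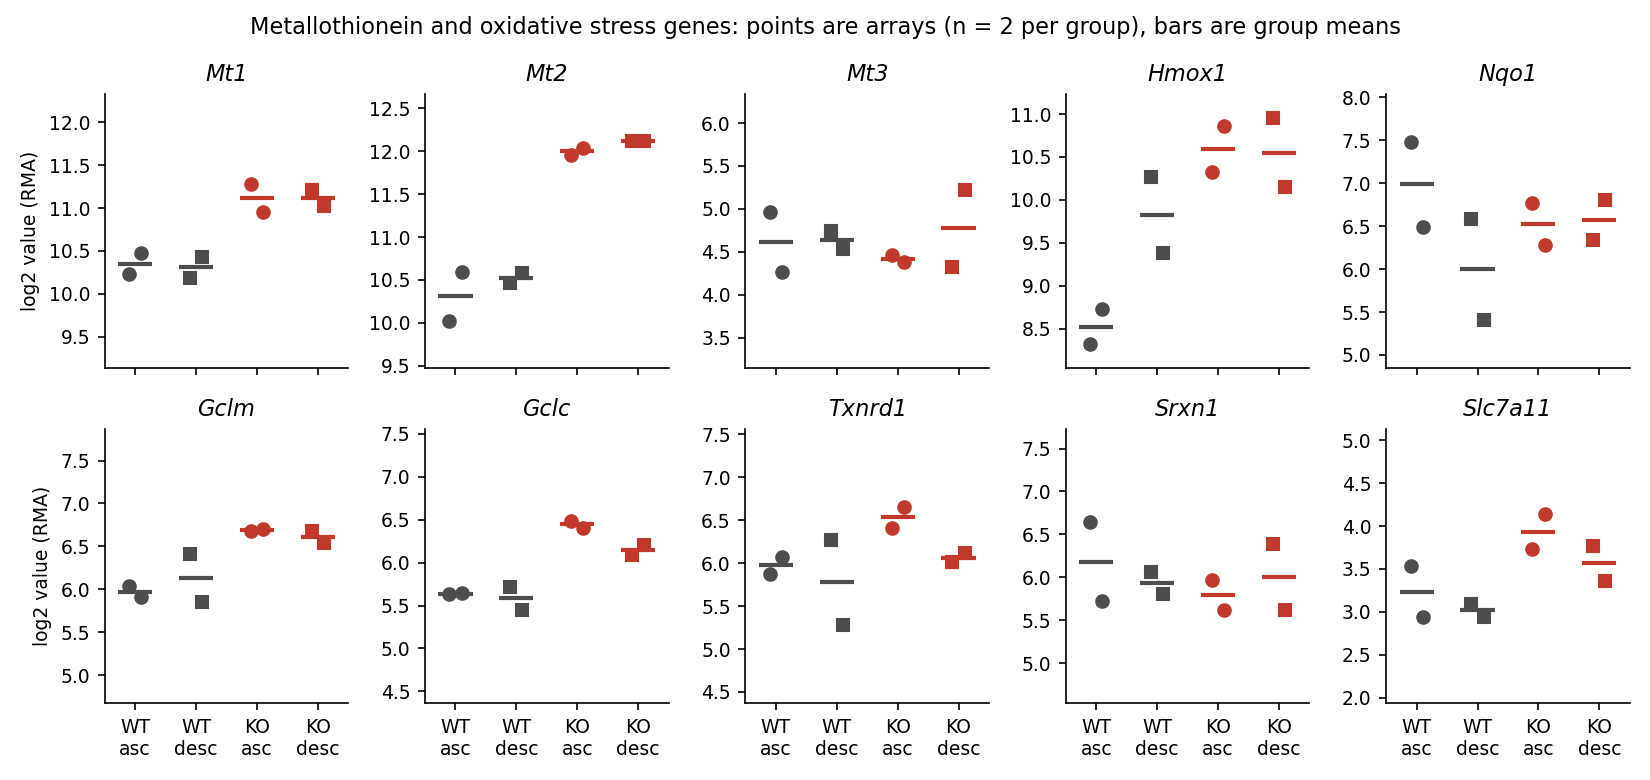
Log2 intensity (vertical axis) of each of the 10 genes on each of the 8 arrays, by group of genotype and segment; points are arrays and bars are group means. Mt2 sits between 10.02 and 10.59 in wild-type and between 11.96 and 12.12 in knockout aorta, while the Mt3 and Srxn1 arrays of both genotypes overlap.

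Hmox1 encodes the inducible heme oxygenase, which breaks heme down into biliverdin, carbon monoxide and iron. Its log2 values were 8.32 and 8.73 in wild-type ascending aorta and 10.32 and 10.87 in knockout ascending aorta, a change of 2.07 (SE 0.39, 4.20-fold, 95% interval 1.19 to 2.95). In descending aorta the values were 10.26 and 9.38 in wild-type and 10.96 and 10.14 in knockout pups, a change of 0.73 (SE 0.39, 95% interval -0.15 to 1.61). That change was 0.29 without wild-type descending replicate 2 and 0.32 without knockout descending replicate 1, and 1.17 and 1.14 without the other array of each group. The ascending groups were separate, and the descending groups overlapped, because wild-type descending replicate 1 lay above knockout descending replicate 2. Averaged over segments the change was 1.40 (SE 0.28, 2.64-fold, limma adjusted p 0.132), and the adjusted p was 0.214 in the ascending and 0.870 in the descending segment.

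Macrophages, which take up red cells and haemoglobin, are a known site of Hmox1 expression, so macrophage markers were read on the same arrays. The 13 markers had a mean log2 value of 6.59 to 7.27 on the wild-type arrays and 7.44 to 7.79 on the knockout arrays, with no overlap. All 13 lay above 0 in the averaged knockout effect, from 0.16 to 1.31 with a median of 0.61, 7 of them had an unadjusted p under 0.05 beside 7.57% of all genes that were higher at that p, and limma called 0. By segment their median was 0.77 in the ascending and 0.40 in the descending aorta. Hmox1 had its lowest values on the wild-type ascending arrays, 8.32 at a marker mean of 6.95 and 8.73 at 6.59. In each ascending group the array with the higher marker mean had the lower Hmox1 value. In each descending group it had the higher Hmox1 value. The part of these markers in the result for Hmox1 was not tested.

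**Figure D2:**
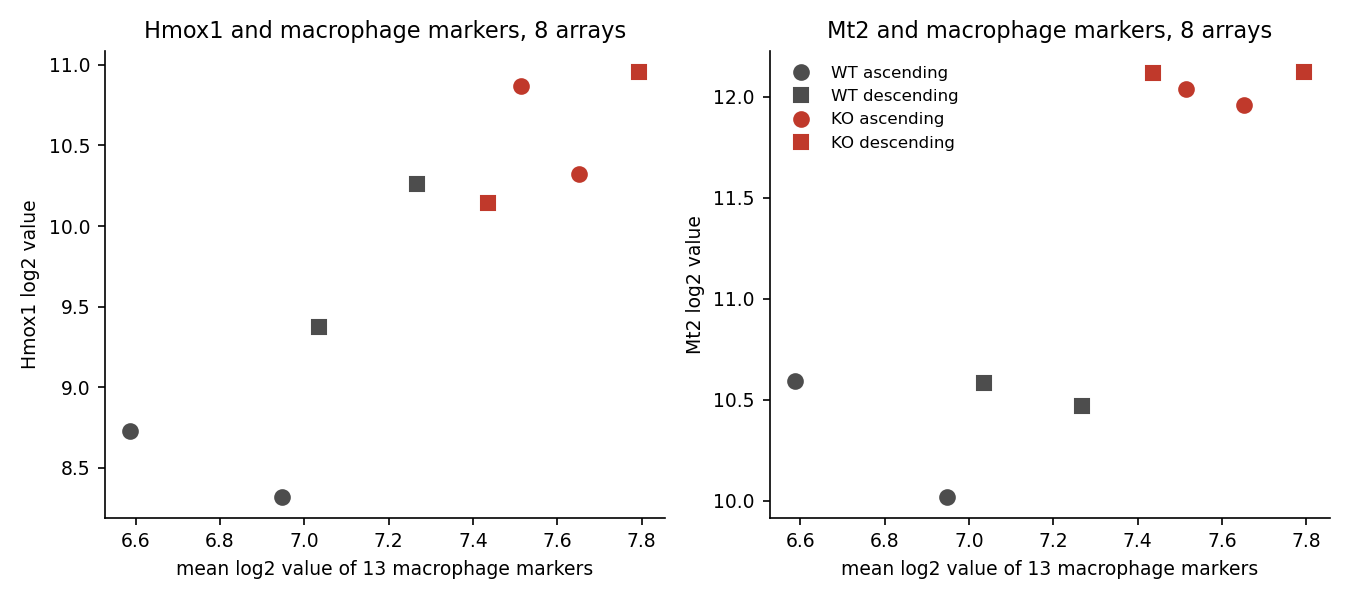
Hmox1 (left) and Mt2 (right), each as log2 intensity on the vertical axis, against the mean log2 intensity of 13 macrophage markers (horizontal axis) on the 8 arrays; each point is an array. The knockout arrays lie at 7.44 to 7.79 on the horizontal axis and the wild-type arrays at 6.59 to 7.27.

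The other genes of heme and iron handling gave a mixed picture: 11 of 16 measured lay above 0 in the averaged effect and 5 below, 3 higher and 1 lower had an unadjusted p under 0.05, and limma called 0. Of all genes, 7.57% were higher at that p, 850 of 22180 were lower, and 0.0721% were called. Slc40a1, the iron exporter ferroportin, differed by 1.27 (SE 0.20, limma adjusted p 0.0820). Hp, the haemoglobin-binding protein haptoglobin, differed by 1.27 (SE 0.39, limma adjusted p 0.310). Its wild-type values were uneven: 6.468 and 4.538 in ascending and 6.315 and 5.458 in descending aorta, with replicate 2 the lower each time. The knockout arrays had 6.776 to 7.366. Hpx, which encodes the heme-binding protein hemopexin, differed by -0.46, and the iron importer gene Slc11a2 by -0.09. Erythroid markers, of which only 4 of 12 were measured, had overlapping means of 4.73 to 5.18 in wild-type and 4.72 to 5.13 in knockout aorta. In the averaged effect 1 of the 4 lay above 0 and 3 below, 1 had an unadjusted p under 0.05 and was higher, and limma called 0. The part of red cells in the result for Hmox1 was not tested.

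The genes that make glutathione stood higher in the knockout without passing the test. Gclc and Gclm encode the catalytic and modifier subunits of glutamate-cysteine ligase, the rate-limiting enzyme of glutathione synthesis. Gclc had 5.63 and 5.64 in wild-type ascending, 5.72 and 5.44 in wild-type descending, 6.48 and 6.41 in knockout ascending, and 6.09 and 6.20 in knockout descending aorta. All 4 knockout arrays lay above all 4 wild-type arrays. The averaged change was 0.68 (SE 0.17, 1.61-fold, 95% interval 0.30 to 1.07, limma adjusted p 0.236), with 0.81 in the ascending and 0.56 in the descending segment.

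Gclm had 6.03 and 5.91 in wild-type ascending, 6.41 and 5.85 in wild-type descending, 6.68 and 6.70 in knockout ascending, and 6.67 and 6.54 in knockout descending aorta. Knockout and wild-type arrays were again separate, with wild-type descending replicate 1 nearest to the knockout. The averaged change was 0.60 (SE 0.19, 1.51-fold, 95% interval 0.17 to 1.02, limma adjusted p 0.326). By segment it was 0.72 (95% interval 0.12 to 1.32) in the ascending and 0.48 (95% interval -0.12 to 1.08) in the descending aorta. The descending change was 0.20 to 0.76 without 1 array.

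Slc7a11 encodes the transporter that exchanges glutamate for the cystine from which glutathione is made. Its values lay in the dimmest of 5 equal groups of genes by level: 3.53 and 2.94 in wild-type ascending, 3.10 and 2.94 in wild-type descending, 3.73 and 4.13 in knockout ascending, and 3.77 and 3.36 in knockout descending aorta. The groups were separate within each segment, but knockout descending replicate 2 lay below wild-type ascending replicate 1. The averaged change was 0.62 (SE 0.21, 1.54-fold, 95% interval 0.15 to 1.10, limma adjusted p 0.347), and the other probe set of the gene gave 0.56. On that other probe set the ascending groups overlapped, with 2.975 and 4.202 in knockout and 3.250 and 2.691 in wild-type aorta. Its descending groups were separate.

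For Nqo1, Txnrd1 and Srxn1 the 95% interval of the averaged change held 0. Nqo1, which reduces quinones and is a widely used readout of NRF2, had 7.48 and 6.50 in wild-type ascending, 6.59 and 5.41 in wild-type descending, 6.77 and 6.28 in knockout ascending, and 6.34 and 6.81 in knockout descending aorta. The wild-type groups had the wider spread (SD 0.70 and 0.83 against 0.34 and 0.33), and in each of them replicate 2 was the lower array. Its averaged change was 0.06 (SE 0.32, 95% interval -0.66 to 0.77), with -0.47 in the ascending and 0.58 in the descending segment. The sign of the averaged change turned without wild-type ascending replicate 2 (-0.19), wild-type descending replicate 2 (-0.24), knockout ascending replicate 1 (-0.065) or knockout descending replicate 2 (-0.060). It was -0.49 without both wild-type replicate 2 arrays and -0.079 after quantile normalization, so no direction is given for Nqo1.

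Txnrd1, the cytosolic thioredoxin reductase, had 5.88 and 6.07 in wild-type ascending and 6.41 and 6.66 in knockout ascending aorta, where the groups were separate. In descending aorta it had 6.27 and 5.28 in wild-type and 6.01 and 6.12 in knockout pups, where wild-type replicate 2 was low and wild-type replicate 1 lay above both knockout arrays. The averaged change was 0.42 (SE 0.23, 95% interval -0.10 to 0.95, limma adjusted p 0.517), and it was 0.18 without wild-type descending replicate 2 and 0.67 without wild-type descending replicate 1. Srxn1 encodes sulfiredoxin, which repairs overoxidised peroxiredoxins. It had 6.65 and 5.72 in wild-type ascending, 6.06 and 5.80 in wild-type descending, 5.97 and 5.62 in knockout ascending, and 6.38 and 5.62 in knockout descending aorta. The groups overlapped in both segments, and the averaged change was -0.16 (SE 0.26, 95% interval -0.75 to 0.43).

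Counted over the set, 8 of 10 genes lay above 0 in the averaged knockout effect and 2 below, with a median of 0.61 against -0.00 over all genes, of which 49.8% lay above 0. Limma called 1 of the 10 at an adjusted p under 0.05, where 0.0721% of all genes were called. Mt1, Mt2, Hmox1, Gclm, Gclc and Slc7a11 had an unadjusted p under 0.05 and were higher, 6 of 10 beside 7.57% of all genes. The background also varied with brightness. When all genes were divided into 5 equal groups by mean level, the brightest, with Mt1, Mt2, Hmox1 and Nqo1, had a median averaged change of 0.24. The next, with Gclm, Gclc, Txnrd1 and Srxn1, had 0.14. The dimmest, with Slc7a11, had -0.14, and the one above it, with Mt3, had -0.12. The part of level in the changes of the set was not tested.

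In the ascending segment 7 of 10 genes lay above 0, with a median of 0.71, and the same 6 genes had an unadjusted p under 0.05 and were higher, beside 5.31% of all genes. Limma called 0 of the 10 and 0% of the 22180 genes there, with 1975 genes at an unadjusted p under 0.05. In the descending segment all 10 changes lay above 0, with a median of 0.56. There Mt1, Mt2 and Gclc had an unadjusted p under 0.05 and were higher, 3 of 10 beside 3.63% of all genes. Limma called 0 of the 10 in the descending segment and 0.00451% of all genes, 1 gene, with 1319 at an unadjusted p under 0.05.

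Both knockout arrays lay above both wild-type arrays for 7 of the 10 genes in the ascending segment, beside 21.5% of all genes, and for 5 of the 10 in the descending segment, beside 21.5% again. The first count holds Txnrd1 and Hmox1 beside the 5 genes of the second, which are Mt1, Mt2, Gclm, Gclc and Slc7a11. All 4 knockout arrays lay above all 4 wild-type arrays for Mt1, Mt2, Gclm and Gclc, 4 of 10 beside 4.76% of all genes.

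**Figure D3:**
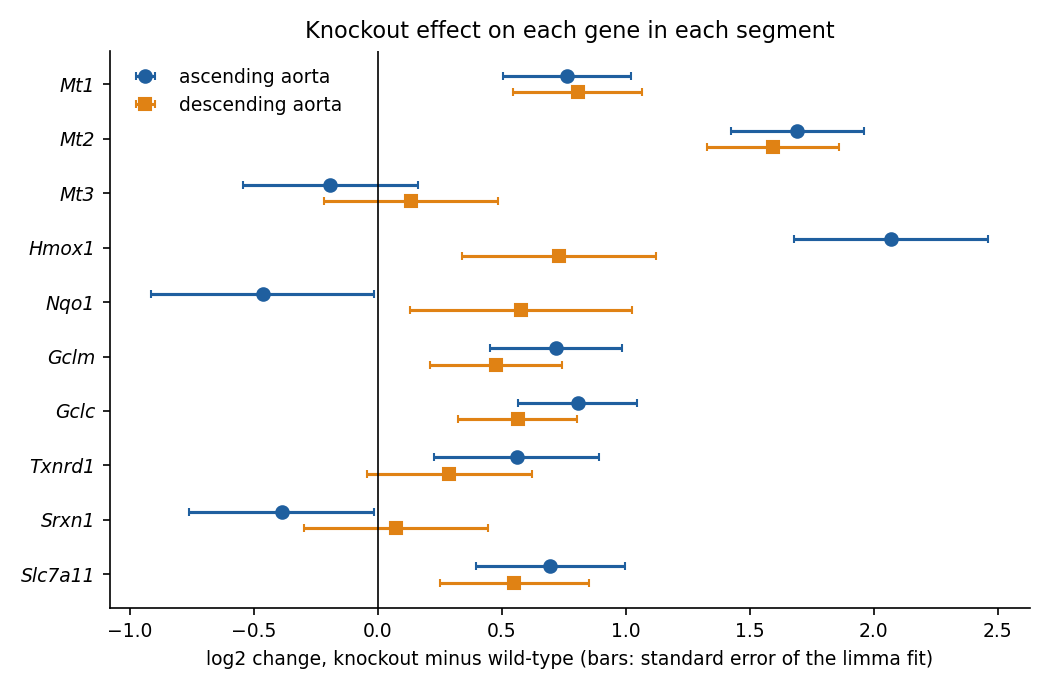
Knockout minus wild-type change in log2 intensity of each of the 10 genes (horizontal axis) in the ascending and descending segment; bars are standard errors of the limma fit. Mt2 has like changes in both segments (1.69 and 1.59), whereas Hmox1 has 2.07 in the ascending and 0.73 in the descending segment.

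Between the 2 segments no gene of the set passed the test. In wild-type aorta the ascending minus descending differences ran from -1.30 for Hmox1 to 0.99 for Nqo1, with a median of 0.05. Hmox1 was lower in the ascending segment by 1.30 on the log2 scale at an unadjusted p of 0.0084 (difference -1.30, SE 0.39, 95% interval -2.17 to -0.42, limma adjusted p 0.657). Without wild-type descending replicate 1 this difference was -0.85, and with any other 1 array left out it lay between -1.74 and -1.09. Nqo1 was 0.99 higher there (SE 0.45, 95% interval -0.01 to 2.00), a difference of 0.50 without wild-type ascending replicate 1 and 0.40 without wild-type descending replicate 2. Leaving out replicate 1 of that group gave 1.58. Limma called 0 of the 10 and 0.00902% of all genes, 2 genes, with 1374 at an unadjusted p under 0.05. Macrophage markers differed between the wild-type segments by a median of -0.31, with 12 of 13 below 0. Adipocyte markers differed by -1.10, with 7 of 7 below 0 and 5 of them at an unadjusted p under 0.05, beside 661 of all 22180 genes that were lower at that p. Neuron and chromaffin markers differed by a median of -0.27, with 7 of 7 below 0, and skeletal muscle markers by 2.34, with 8 of 8 above 0. Their part in the segment difference of Hmox1 was not tested.

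In knockout aorta the segment differences ran from -0.35 for Mt3 to 0.47 for Txnrd1, with a median of 0.02, and the smallest unadjusted p was 0.187. Hmox1 differed by 0.04 (SE 0.39) there. Limma called 0 of the 10 and 0% of all genes, with 895 at an unadjusted p under 0.05. The levels of Hmox1 therefore ran in the order wild-type ascending (8.52 ± 0.29, SD, n = 2), wild-type descending (9.82 ± 0.63), knockout descending (10.55 ± 0.57) and knockout ascending (10.59 ± 0.39). The last 3 of these groups overlapped as neighbours, while both wild-type ascending arrays lay below all others.

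The knockout effect in the ascending segment minus that in the descending segment was 1.34 for Hmox1 (SE 0.55, 95% interval 0.10 to 2.58, unadjusted p 0.0373, limma adjusted p 1.00). For Nqo1 it was -1.04 (SE 0.63, unadjusted p 0.133), and -0.55 when wild-type ascending replicate 1 was left out. Leaving out replicate 2 of the wild-type descending group gave -0.45, and its replicate 1 gave -1.63. Mt2 differed between segments by 0.10 (SE 0.38, 95% interval -0.75 to 0.94), an interval that reaches 0.94. Limma called 0 of the 10 and 0% of all genes in this comparison, with 733 at an unadjusted p under 0.05.

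Genes with a pattern like that of Mt2 over the 8 arrays were ranked by Pearson's r among 10324 genes above the median level, with predicted, microRNA, small nucleolar RNA and olfactory or vomeronasal receptor genes left out. The 5 nearest were Errfi1 (r = 0.990), Fkbp11 (0.980), Bnip2 (0.977), Fat1 (0.977) and M6pr (0.976), and Mt1 ranked 16 with 0.952. Errfi1, which encodes a feedback inhibitor of the EGF receptor, had 6.67 and 7.01 in wild-type ascending, 6.85 and 7.22 in wild-type descending, 8.39 and 8.58 in knockout ascending, and 8.38 and 8.47 in knockout descending aorta. It rose by 1.52 (SE 0.19, limma adjusted p 0.0242), and its call, like those of all 16 called genes, ended without knockout ascending replicate 2. For Mt1 the nearest were Ecm1 (0.977), Hif3a (0.975), Gapdh (0.973), Zdhhc15 (0.967) and M6pr (0.957). For Hmox1 they were Dnajb6 (0.992), Ipo5 (0.986), Cct8 (0.983), Lmf2 (0.975) and Mtss1 (0.974). These correlations share the same 8 arrays and their group structure, and are given as a description.

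Among the wider NRF2 targets no gene passed the test. The counts of this and the following lists stand beside 7.57% of all genes that were higher at an unadjusted p under 0.05 and 0.0721% that were called in the averaged effect. At that p 850 of the 22180 genes were lower, and 49.8% of all genes lay above 0. By level, the median averaged change of all genes was 0.24 in the brightest of the 5 groups and 0.14 in the next. It was -0.14 in the dimmest group and -0.12 in the one above it. The part of level in these lists was not tested. Of 18 other NRF2 targets measured, 15 lay above 0 in the averaged effect and 3 below, with a median of 0.16. In this list 1 gene had an unadjusted p under 0.05, and limma called 0. Cbr3, a carbonyl reductase, differed by 0.74 (SE 0.32) and Pgd, of the NADPH-producing pentose phosphate pathway, by 0.44, while the glutathione transferase relative Mgst1 differed by -0.20 and Osgin1 by -0.16. Of 12 regulators of the pathway, 9 lay above 0, 4 had an unadjusted p under 0.05 and 0 were called by limma, with a median of 0.23. Nfe2l2, which encodes NRF2 itself, differed by 0.50 (SE 0.19), and Sqstm1, whose product p62 binds KEAP1, by 0.63 (SE 0.19). Nr0b1 differed by -0.30 and the small Maf gene Mafk by -0.12.

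Among 18 other enzymes of glutathione and peroxide metabolism, 13 lay above 0 and 5 below, 3 had an unadjusted p under 0.05 and were higher, limma called 0, and the median was 0.15. The mitochondrial peroxiredoxin Prdx3 differed by 1.00 (SE 0.22, limma adjusted p 0.170) and the secreted glutathione peroxidase Gpx3 by 0.75 (SE 0.20, limma adjusted p 0.273). Gpx4, which reduces lipid peroxides, and the mitochondrial thioredoxin Txn2 each differed by -0.12. NADPH oxidase subunits, which produce superoxide, had a median of 0.48: 7 of 10 lay above 0, 5 had an unadjusted p under 0.05 and were higher, and limma called 0. Ncf1 (0.84, SE 0.20) and Cybb (0.82, SE 0.21) encode the phagocyte subunits p47phox and gp91phox, and stood beside the macrophage markers given above. Nox1 differed by -0.24 and Noxa1 by -0.17. The part of macrophage markers in the values of these subunits was not tested.

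Genes of metal handling and of hormone and stress responses, in which Mt1, Mt2 and Slc7a11 are known targets, were read in the same way. Of 17 genes of zinc and copper handling, 15 lay above 0 and 2 below, 2 higher and 1 lower had an unadjusted p under 0.05, limma called 0, and the median was 0.19. The zinc transporters Slc39a14 and Slc30a7 differed by 0.61 and 0.58, Slc39a8 by -0.32 and the copper pump Atp7b by -0.52. The list of 16 genes for glucocorticoid induction was drawn up with earlier results known, and it includes the gene of the receptor itself. In it 14 lay above 0 and 2 below, 7 had an unadjusted p under 0.05 and were higher, and the median was 0.53. Limma called 1, Errfi1, the gene nearest to Mt2 in the ranking above. Whether glucocorticoids took part was not tested. Per1, a clock gene, differed by 0.89 (SE 0.18, limma adjusted p 0.140), the lipase inhibitor gene Angptl4 by -0.30 and the sulfotransferase gene Sult1a1 by -0.22. Of 18 targets of ATF4, a factor of the amino acid and stress response that also acts on Slc7a11, 14 lay above 0 and 4 below, 5 had an unadjusted p under 0.05 and were higher, limma called 0, and the median was 0.17. Slc7a5, an amino acid transporter, differed by 1.57 (SE 0.27, limma adjusted p 0.0988) and Ddit4 by 0.92, while the serine synthesis gene Phgdh differed by -0.41 and Cbs by -0.35.

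**Figure D4:**
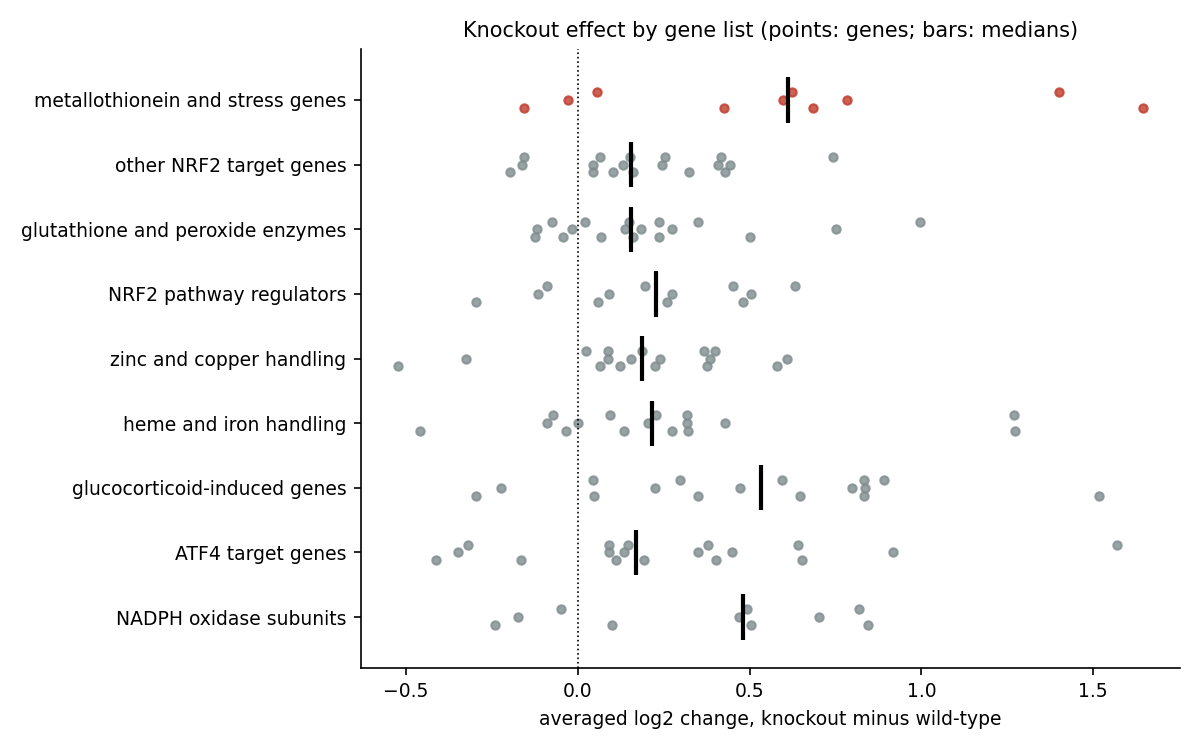
Averaged knockout minus wild-type change in log2 intensity of every measured gene in the set and in the pathway lists, 1 point per gene, with the median of each list marked. The set has a median of 0.61, the glucocorticoid list 0.53, the NADPH oxidase list 0.48 and the other NRF2 targets 0.16.

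Markers of other tissues also differed with genotype or segment, and their part in the changes of the set was not tested. Adipocyte markers lay below 0 in the averaged effect for 7 of 7 measured, with a median of -1.13 and means of 6.22 to 8.17 on wild-type and 5.80 to 6.51 on knockout arrays. The adipocyte means were separate in both segments. Endothelial markers had a median change of -0.84 in the ascending and -0.11 in the descending segment. In the ascending segment 8 of 8 lay below 0, 6 had an unadjusted p under 0.05 and limma called 0. Of all 22180 genes, 798 were lower there at that p and 0% were called. Endothelial means were 7.40 and 7.11 in wild-type ascending and 6.55 and 6.26 in knockout ascending aorta, without overlap, whereas the descending groups overlapped. Skeletal muscle markers reached 8.80 on wild-type ascending replicate 2 against 5.52 to 7.50 on the other 7 arrays. Wild-type ascending replicate 1 had 7.50, and the knockout ascending arrays lay lower, at 6.79 and 5.83. Their median change in the ascending segment was -1.96, with 8 of 8 below 0. Of these, 6 had an unadjusted p under 0.05, beside the 798 of all genes, and limma called 0. In the descending segment the median was 0.62, with 7 of 8 above 0. Smooth muscle marker means were 8.88 to 9.27 in wild-type and 9.19 to 9.46 in knockout aorta, and within each segment both knockout arrays lay above both wild-type arrays. Fibroblast marker means were 8.61 to 9.36 and 9.11 to 9.30. Cardiomyocyte marker means were 6.26 to 6.92 in wild-type and 6.51 to 7.55 in knockout aorta, and neuron and chromaffin marker means were 4.83 to 5.25 and 4.80 to 5.60. The genotypes overlapped in the ascending segment for these last 3 lists, and in the descending segment the knockout arrays lay above the wild-type arrays.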

How the data were processed

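Amplified, biotin-labelled RNA of 8 pools of newborn mouse aorta was read on 1 Affymetrix array per pool. The log2 values deposited by the authors, 1 per probe set and array, come from RMA in Affymetrix Expression Console according to the submitters' processing notes. RMA normalises between arrays and compresses differences of dim genes. Software versions and the build of the array: not given in the sources used here.

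Of 41345 probe sets, 23521 had 1 gene symbol, 1814 several, and 16010 were not named. The brightest probe set per gene was kept, which left 22180 genes. R 4.3.3 and limma 3.58.1 were used to fit 4 group means over all 8 arrays (4 residual and 5.52 prior degrees of freedom), with Benjamini-Hochberg adjustment over all genes within each of 6 comparisons and a call at an adjusted p under 0.05. Precision is limited by having 2 arrays per group. The procedure was also run on simulated data, drawn with independent noise of the fitted spread, alike on all 8 arrays, and no segment differences. Such a run checks the code. It does not show how calls fare with the narrower wild-type replicate 2 arrays. The alternatives were other scalings, filters, fits and arrays left out, as the closing section gives.

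The genes of the set and all lists were chosen with earlier results of these data known. All genes of the set are named; from each pathway list the text names up to 2 genes per direction with the largest averaged change and every called gene; of the marker genes only Acta2 is named. Promoter letters are from RefSeq, build GRCm38.p6. Plots were made in Python 3.11.15 (matplotlib 3.10.9).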

Additional observations from a re-analysis of the deposited data

How the results depend on the processing

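Each comparison was repeated under other scalings, filters, fits and arrays left out; the fits with 1 array left out assume that a lone array varies like the other groups. The number of genes of the set called in the averaged effect was 1 and became 0 after quantile normalization and with every row of the table, and 0 to 1 without 1 array. Mt2 then had an averaged change of 1.56 and 1.64, and 1.50 to 1.79 without 1 array. With limma's trend and robust options 1 gene, Mt2, was called in the ascending effect and 1 in the descending effect. The number of genes at an unadjusted p under 0.05 and higher in the descending effect was 1 without knockout descending replicate 1 and 6 without wild-type descending replicate 1. Over all genes the averaged effect had 16 calls, 2 after quantile normalization, 20 with the trend and robust options, 50 at an adjusted p under 0.1, 25 without both wild-type replicate 2 arrays, and 0 to 50 without 1 array. The simulated data left out correlation between genes.

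Mt1, Mt2, Hmox1, Gclm, Gclc and Slc7a11 kept their direction in the 3 knockout effects under all alternatives that gave a value, and Mt3, Nqo1, Txnrd1 and Srxn1 did not. After quantile normalization the averaged change was 0.070 for Mt3 and -0.079 for Nqo1, and the descending change of Srxn1 was -0.053. Without both wild-type replicate 2 arrays the averaged change of Nqo1 was -0.49, and the descending changes were -0.014 for Nqo1, -0.21 for Txnrd1 and -0.058 for Srxn1. Without 1 array the averaged changes were -0.26 to 0.20 for Mt3, -0.24 to 0.35 for Nqo1 and -0.39 to 0.074 for Srxn1. The ascending changes were -0.54 to 0.16 for Mt3, -0.96 to 0.030 for Nqo1 and -0.85 to 0.074 for Srxn1, and the descending changes were -0.32 to 0.59 for Mt3, -0.014 to 1.17 for Nqo1, -0.21 to 0.78 for Txnrd1 and -0.31 to 0.45 for Srxn1. The segment difference of Hmox1 in the knockout was -0.36 to 0.45 without 1 array, and the difference of the Mt2 effect between segments was -0.19 to 0.38. The cause of these turns was not tested.

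Hmox1 had an ascending change of 1.80 to 2.34 without 1 array and 2.27 without both wild-type replicate 2 arrays, and its difference between segments was 0.89 to 1.78 and 1.99. Groups share replicate numbers, which no label ties to a common litter or day, and the correlation of deviations from the group means between same-numbered arrays ran from -0.08 to 0.29 over 6 pairs of groups. With the replicate number as a block, 1 gene of the set was called in the averaged effect, Mt2 with 1.64 and an adjusted p of 0.026, and 19 of all genes. Without the dimmest 25% of genes Slc7a11 gave no value, and with only the groups compared the averaged effect and the difference between segments gave none.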
